A study of Mus musculus with 30 samples.

Results

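In mouse bone marrow-derived dendritic cells (BMDCs), 8 early targets and brakes of the cAMP pathway were followed: Sik1, Crem, Per1, Pde4b, Pde4d, Rgs1, Rgs2 and Coq10b. They are 8 of the 43629 genes in the count table, picked by name as genes known to respond to cAMP or to its transcription factor CREB. They were also chosen by their readout, because earlier results of these data had shown how they changed between the sets of libraries, so their changes between sets are a description and carry no p-value. All 8 passed the filter on low counts in every comparison, with 103 to 18888 reads per gene and library.

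Cells that sense a ligand through a Gs-coupled receptor make cyclic AMP with adenylyl cyclase, and cyclic AMP releases the catalytic subunits of protein kinase A (PKA). PKA phosphorylates CREB, which sits on DNA at the cyclic AMP response element (CRE) and, with CRTC coactivators, switches on a first wave of genes within minutes. Many of these genes act back on the pathway, and calcium-dependent kinases can phosphorylate CREB too. In dendritic cells, cyclic AMP is known to change cytokine output, maturation and migration. Extracellular ATP, the stimulus used here, opens P2X channels and activates P2Y receptors, and it raises cytosolic calcium in these cells.

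Poly-A RNA was sequenced in 30 libraries, 1 from each of 10 BMDC cultures (5 WT and 5 Cacnb3-KO) in each of 3 sets. Cacnb3 encodes the beta-3 subunit of voltage-gated calcium channels. The library names end in ctrl, 0p5h or 24h and name no stimulus. The study describes unstimulated cells, and cells taken 0.5 h and 24 h after stimulation with 500 µM ATP for 30 min. By their names, the ctrl, 0p5h and 24h libraries were taken as these in that order, all after 6 days of culture. The treatment field of the sample labels disagrees with these names: libraries whose name ends in ctrl carry the entry 30min_ATP there, libraries whose name ends in 0p5h carry the entry vehicle, and only for 24h do both fit together. Libraries were grouped here by their names, and under the other reading every ctrl to 0p5h change would turn around. The values of 24h against ctrl would then compare 24h with 30min_ATP, and those of 24h against 0p5h would compare 24h with vehicle. Genotype differences in changes between sets would change their meaning in the same way. The genotype comparisons are made within a set and do not depend on which reading holds, beyond the name of the set. The study's methods give WT mice as C57BL/6J and Cacnb3-/- mice as C57BL/6N, so genotype and substrain cannot be told apart. Whether each culture number stands for 1 mouse is not given in the sources used here, so p-values may measure the spread between cultures only.

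Stretches of DNA around the start sites show where the letters of a CRE occur near these genes. RefSeq promoter windows (build GRCm38.p6, 250 bases before to 50 bases after a start) were matched for 5 of the 8 genes. The full palindromic CRE, TGACGTCA, was found in none of their windows, against 1.79% of all 32851 windows. Its shorter core, TGACG on either strand, was found in 5 of their 9 windows (in 4 of the 5 genes), against 20.8% of all windows. The 3 windows below are shown because they hold the most cores or belong to genes discussed in detail below, with each core (TGACG, or CGTCA for the reverse strand) in capitals. The Coq10b window, chr1:55052520-55052819 on the plus strand, held 4 cores, with first bases at -173, -72, -61 and -50 from the start, and 0.231% of all windows held at least 4.
Coq10b: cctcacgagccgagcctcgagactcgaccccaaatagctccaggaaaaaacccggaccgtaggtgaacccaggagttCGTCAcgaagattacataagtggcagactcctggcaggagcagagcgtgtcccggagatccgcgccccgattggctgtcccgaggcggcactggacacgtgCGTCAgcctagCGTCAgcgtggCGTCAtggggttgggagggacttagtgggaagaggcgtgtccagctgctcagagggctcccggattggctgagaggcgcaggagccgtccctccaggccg
Rgs2: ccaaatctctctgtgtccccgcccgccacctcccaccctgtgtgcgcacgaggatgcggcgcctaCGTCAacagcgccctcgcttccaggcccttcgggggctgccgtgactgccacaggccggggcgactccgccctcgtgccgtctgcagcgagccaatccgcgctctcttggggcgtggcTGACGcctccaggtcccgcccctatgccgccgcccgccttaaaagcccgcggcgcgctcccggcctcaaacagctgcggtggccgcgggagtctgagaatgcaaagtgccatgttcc
Per1: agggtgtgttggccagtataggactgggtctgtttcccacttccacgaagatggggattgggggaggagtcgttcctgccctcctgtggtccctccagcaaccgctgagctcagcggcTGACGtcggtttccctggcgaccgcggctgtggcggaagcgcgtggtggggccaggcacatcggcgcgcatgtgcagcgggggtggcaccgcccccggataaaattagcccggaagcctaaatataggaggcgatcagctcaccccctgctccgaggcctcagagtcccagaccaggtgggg
The Rgs2 window, chr1:144004100-144004399 on the minus strand, held 2 cores at -185 and -67, and 5.01% of all windows held at least 2. Per1 had 2 windows with 1 core each, and the one printed, chr11:69099902-69100201 on the plus strand, has it at -132. In Pde4b, 1 of 4 windows had a core, at -34, and the single Pde4d window had none. A match describes letters only: no binding was measured in these libraries, and windows further from the start were not searched.

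Sequencing depth and cell makeup bear on all values below. The libraries held 8237393 to 32164225 counted reads. Genes that define dendritic cells (8 of 8 listed markers, among them Cd74, H2-Aa and Itgax) summed to 13117 to 35708 normalised reads per 1000000 library reads (CPM) per library, macrophage markers to 577 to 2424 CPM, granulocyte markers to 108 to 574 CPM, and B cell, T cell and mast cell or basophil markers to at most 5.05, 1.19 and 7.29 CPM. Cacnb3, the targeted gene, kept reads in all libraries labelled Cacnb3-KO, at 1028 ± 196 CPM in ctrl, 964 ± 238 in 0p5h and 973 ± 277 in 24h (mean ± SD, n = 5), against 1260.2 ± 112, 1233 ± 188 and 1669 ± 366 in WT. The log2 difference between genotypes was -0.27 in ctrl, -0.34 in 0p5h and -0.77 in 24h (edgeR adjusted p = 0.383, 0.367 and 0.0518), so it did not pass the threshold, and the deleted exons are not given in the sources used here. In 24h the genotypes did not overlap, at 573 to 1295 CPM in Cacnb3-KO against 1303 to 2143 in WT, as for 6.51% of 12706 genes. In ctrl and in 0p5h, 4 of 5 Cacnb3-KO libraries lay below all WT libraries. In bulk libraries, fewer cells that express a gene and less of its RNA per cell cannot be told apart.

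At 0p5h the 8 genes split into 3 strong responders, 4 that moved less and 1 that stayed near its ctrl level. Sik1, Rgs2 and Coq10b were more than 2-fold higher in 0p5h than in ctrl in both genotypes, Per1, Crem, Rgs1 and Pde4b had log2 changes of 0.50 to 0.73, and Pde4d had no common direction over the cultures. A gene was called when its adjusted p was below 0.05 and its change at least 2-fold, and by that rule Sik1, Rgs2 and Coq10b were among the called genes of each genotype. Beside these 3 of 8, 0.176% of 13085 tested genes were called higher in WT and 0.282% of 12750 in Cacnb3-KO; since the genes were chosen with this change in view, nothing is read from that contrast. With the culture as a block, the calls over all genes increased to 65 higher genes in WT (23 without it) and to 74 in Cacnb3-KO (36 without it). The median log2 change of the 8 genes was 0.67 in both genotypes, beside 0.0075 (WT) and -0.0087 (Cacnb3-KO) over all genes tested.

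**Figure D1:**
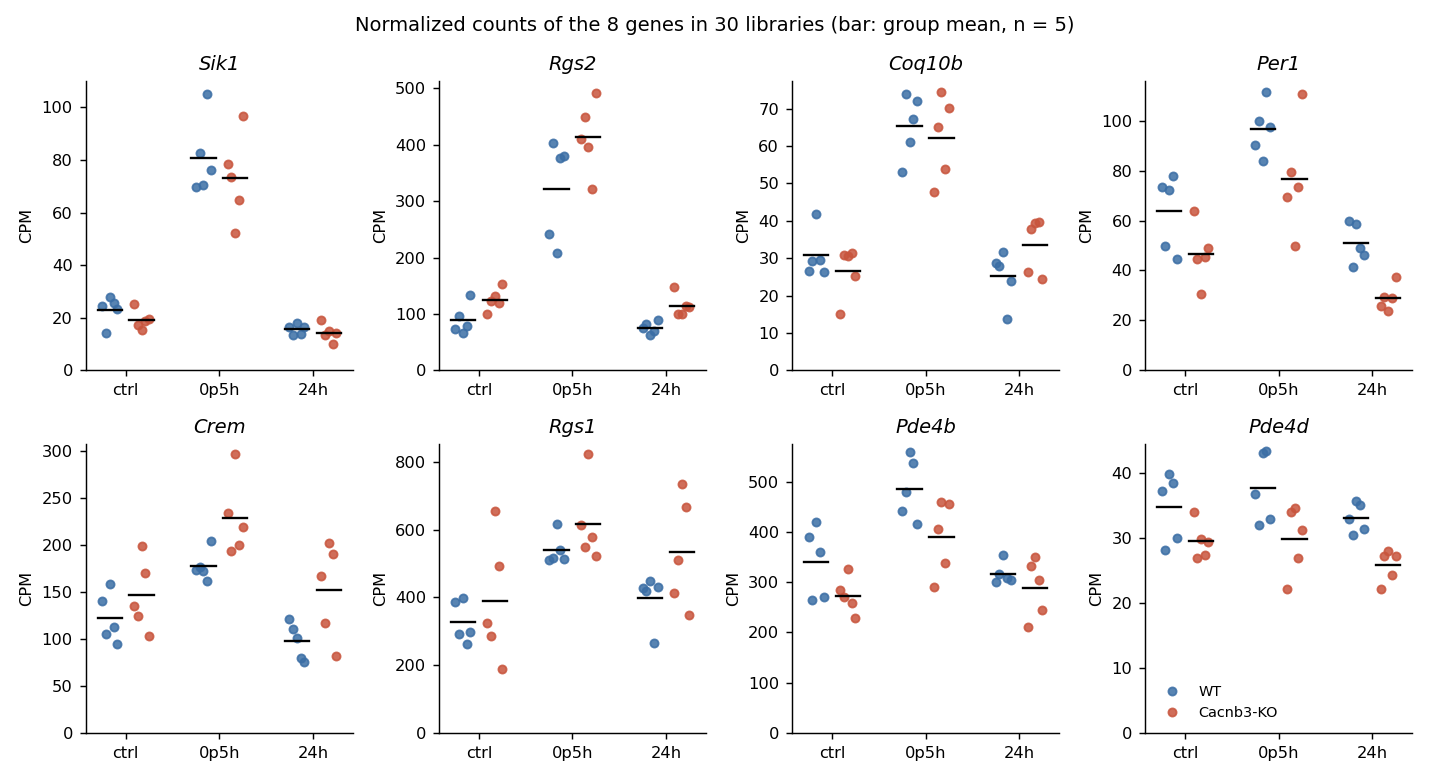
Normalised CPM (vertical axes, linear from 0) of the 8 genes in each of the 30 libraries by set (horizontal axes) and genotype (colour), with 1 point per library and a bar for the group mean (n = 5). Sik1, Rgs2 and Coq10b peak in 0p5h in every culture, whereas Pde4d stays between 22.2 and 43.5 CPM throughout.

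Sik1 (salt-inducible kinase 1; ENSMUSG00000024042, chromosome 17: 31844248-31855792, minus strand, GRCm38) encodes a kinase that phosphorylates CRTC coactivators and keeps them out of the nucleus, a brake on CREB. In WT cultures s846, s850, s855, s856 and s864, in that order here and below, Sik1 was at 24.4, 14.04, 27.9, 25.5 and 23.4 CPM in ctrl, at 69.7, 82.7, 70.3, 105 and 76.2 CPM in 0p5h, and at 16.5, 13.5, 18.03, 13.9 and 16.3 CPM in 24h. In Cacnb3-KO cultures s843, s851, s852, s853 and s865 it was at 25.4, 17.2, 15.4, 18.8 and 19.5 CPM in ctrl, at 78.5, 73.3, 52.3, 64.6 and 96.6 CPM in 0p5h, and at 19.02, 13.3, 14.96, 10.1 and 14.1 CPM in 24h. The lowest 0p5h library of either genotype lay above the highest ctrl and the highest 24h library, and ctrl and 24h overlapped. The log2 change from ctrl to 0p5h was 1.82 (SE 0.18) in WT and 1.91 (SE 0.18) in Cacnb3-KO. Within single WT cultures the increase was 2.52-fold to 5.89-fold, and within Cacnb3-KO cultures 3.09-fold to 4.95-fold. The 5.89-fold increase belonged to WT culture s850, whose ctrl library had the lowest WT ctrl value.

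Rgs2 (ENSMUSG00000026360, chromosome 1: 143999338-144004161, minus strand) encodes a regulator of G protein signalling, a protein that speeds GTP hydrolysis by G protein alpha subunits, with a preference for Gq. Its WT values were 72.7, 95.8, 66.5, 78.8 and 134 CPM in ctrl, 242, 403, 208, 377 and 381 CPM in 0p5h, and 74.4, 81.5, 63.1, 69.0 and 88.6 CPM in 24h. In Cacnb3-KO it stood at 100.1, 122, 132, 119 and 153 CPM in ctrl, 410.5, 449, 397, 322 and 492 CPM in 0p5h, and 147, 99.7, 99.98, 113 and 112 CPM in 24h. All 10 libraries of 0p5h were above all 20 of the other sets, and the 24h libraries were back in the range of ctrl or just below it. The log2 change from ctrl to 0p5h was 1.85 (SE 0.25) in WT and 1.71 (SE 0.15) in Cacnb3-KO, and the smallest increase within a culture was 2.71-fold.

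Coq10b (ENSMUSG00000025981, chromosome 1: 55052770-55072702, plus strand) encodes a mitochondrial protein that binds coenzyme Q and is needed for its use in respiration; it is not itself a component of cAMP signalling. Its WT values were 26.5, 29.3, 41.9, 29.6 and 26.4 CPM in ctrl, 53.2, 73.9, 61.1, 67.3 and 72.0 CPM in 0p5h, and 28.6, 27.8, 31.7, 13.6 and 23.9 CPM in 24h. The Cacnb3-KO values were 15.03, 30.7, 30.7, 31.2 and 25.1 CPM in ctrl, 47.8, 65.2, 74.4, 53.9 and 70.2 CPM in 0p5h, and 26.3, 37.9, 39.5, 39.7 and 24.3 CPM in 24h. Again no 0p5h library overlapped the other sets of its genotype. Its log2 change of 1.10 (SE 0.14) in WT and 1.22 (SE 0.20) in Cacnb3-KO put it just inside the 2-fold limit, and the next genes were Rgs1 in WT at 0.73 (SE 0.12) and Per1 in Cacnb3-KO at 0.70 (SE 0.22), both outside it.

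Per1 and Crem encode transcriptional repressors. Per1 (ENSMUSG00000020893, chromosome 11: 69095217-69109960, plus strand) encodes a core clock protein that blocks CLOCK and BMAL1, and its transcription is known to be induced by CREB when the clock is reset. Per1 was at 73.6, 49.6, 72.4, 78.0 and 44.7 CPM in WT ctrl and at 90.4, 100.1, 83.7, 112 and 97.5 CPM in WT 0p5h, without overlap. In Cacnb3-KO it was at 63.9, 44.5, 30.6, 45.4 and 49.0 CPM in ctrl and at 69.3, 79.6, 49.7, 73.3 and 111 CPM in 0p5h, and these groups overlapped although each culture was higher in 0p5h. The log2 change was 0.61 (SE 0.16) in WT and 0.70 (SE 0.22) in Cacnb3-KO. Crem (ENSMUSG00000063889, chromosome 18: 3266048-3337748, minus strand) encodes activators and, from an internal promoter, the short repressor ICER that competes for CREs; the counts pool all its transcripts. It stood at 141, 105, 159, 113 and 94.7 CPM in WT ctrl and at 174, 176, 173, 162 and 204 CPM in WT 0p5h, again without overlap. The Cacnb3-KO values were 135, 125, 199, 171 and 103 CPM in ctrl and 234, 194, 297, 199.8 and 219 CPM in 0p5h, so that here only the lowest 0p5h library reached into ctrl. Its log2 change was 0.55 (SE 0.14) in WT and 0.63 (SE 0.19) in Cacnb3-KO.

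Pde4b and Pde4d are brakes on cyclic AMP itself, whereas Rgs1 acts on G proteins. Pde4b (ENSMUSG00000028525, chromosome 4: 102087543-102607259, plus strand) and Pde4d (ENSMUSG00000021699, chromosome 13: 108449948-109953461, plus strand) encode phosphodiesterases that break down cyclic AMP, and Rgs1 (ENSMUSG00000026358, chromosome 1: 144242296-144249242, minus strand) encodes a regulator of Gi and Gq signalling known for its effect on chemokine responses. Pde4b spanned 266 to 419 CPM in WT ctrl against 417 to 558 CPM in WT 0p5h, and 229 to 325 CPM against 291 to 459 CPM in the same sets of Cacnb3-KO. At 24h it spanned 301 to 353 CPM (WT) and 211 to 350.2 CPM (Cacnb3-KO). Its ctrl and 0p5h sets thus overlapped in both genotypes, and so did those of Rgs1 in Cacnb3-KO. Rgs1 spanned 263 to 398 CPM in WT ctrl against 510.4 to 616 CPM in WT 0p5h. Its spread was wider in Cacnb3-KO, with 189 to 654 CPM in ctrl against 523 to 822 CPM in 0p5h, and 24h libraries spanned 264 to 449 CPM (WT) and 347 to 736 CPM (Cacnb3-KO). Both genes were thus higher in 0p5h in every culture, by less than the strong responders. The log2 change of Pde4b was 0.53 (SE 0.14) in WT and 0.50 (SE 0.16) in Cacnb3-KO, and that of Rgs1 0.73 (SE 0.12) and 0.65 (SE 0.29). Pde4d behaved differently from its paralog: its log2 change was 0.13 (SE 0.12) in WT and 0.0019 (SE 0.14) in Cacnb3-KO, and single cultures changed by 0.988-fold to 1.14-fold (WT) and 0.651-fold to 1.27-fold (Cacnb3-KO). The difference between the paralogs was not tested.

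Taken by culture, 7 of the 8 genes were higher in 0p5h than in ctrl in all 5 cultures of each genotype, beside 9.67% of all genes tested in WT and 9.76% in Cacnb3-KO. Pde4d was the exception, higher in 4 of 5 WT cultures and 3 of 5 Cacnb3-KO cultures. The ctrl and 0p5h libraries did not overlap for 6 of the 8 in WT and for 3 (Sik1, Rgs2 and Coq10b) in Cacnb3-KO, beside 0.741% and 0.761% of all genes tested. These counts rest on the contrast the genes were chosen by.

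**Figure D2:**
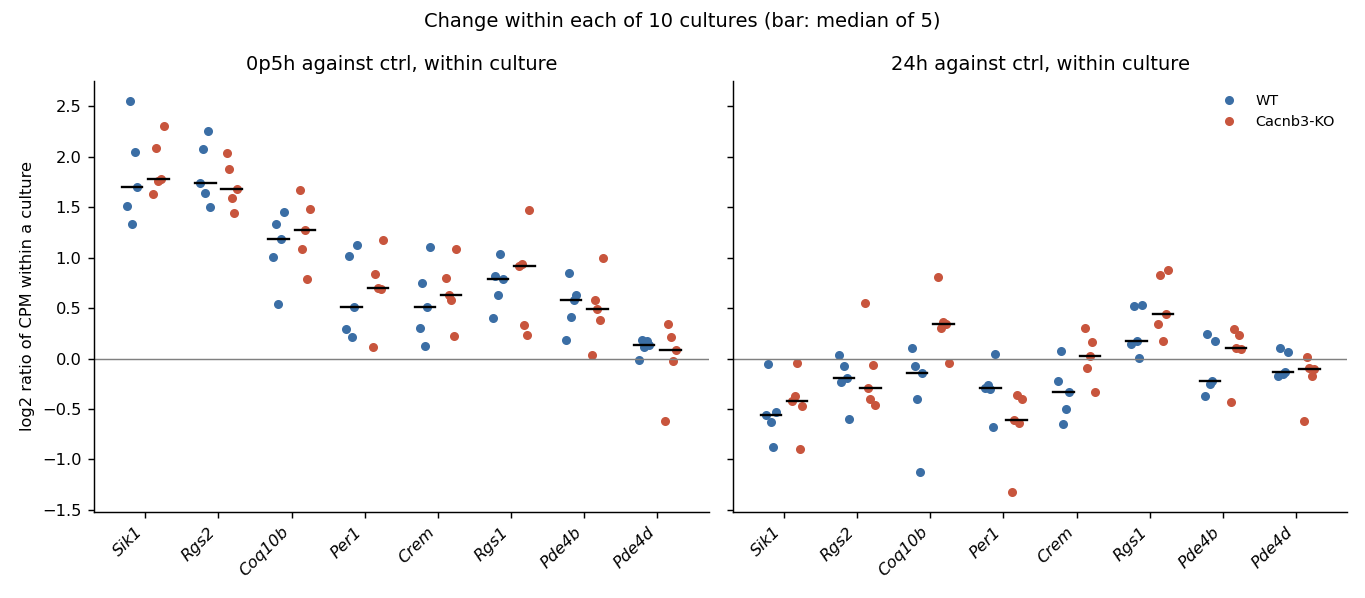
Log2 ratio of normalised CPM within each of the 10 cultures, for 0p5h over ctrl and for 24h over ctrl, with 1 point per culture and a bar for the median of 5. For 0p5h the points of Sik1, Rgs2 and Coq10b lie apart from 0 in both genotypes, with the smallest ratio 1.46-fold for Coq10b in WT, and for 24h the points scatter around 0 for most of the 8 genes.

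From 0p5h to 24h all 8 group means went down in both genotypes. Between 0p5h and 24h the log2 change was -2.36 in WT and -2.35 in Cacnb3-KO for Sik1, -2.09 and -1.84 for Rgs2, and -1.38 and -0.88 for Coq10b. Per1 had 51.1 ± 8.005 CPM in WT at 24h after 96.6 ± 10.499 CPM at 0p5h, and 28.97 ± 5.14 after 76.5 ± 22.1 CPM in Cacnb3-KO (mean ± SD, n = 5), a log2 change of -0.92 and -1.39. The smallest changes were those of Rgs1 (-0.43 and -0.20) and Pde4d (-0.18 and -0.20). In WT, Sik1, Rgs2 and Coq10b were called lower, and in Cacnb3-KO Sik1, Rgs2 and Per1, beside 0.592% and 0.495% of all genes tested. All 8 genes were lower in each of the 5 WT cultures and 6 in each of the 5 Cacnb3-KO cultures, beside 14.5% and 19.1% of all genes. The 2 sets did not overlap for 7 genes in WT and 4 in Cacnb3-KO, beside 2.17% and 1.83%. These values share the 0p5h libraries with the contrast that chose the genes and are given as a description. With the culture as a block, the genes called lower over the whole table numbered 175 in WT (76 without it) and 200 in Cacnb3-KO (63 without it).

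Whether any of the 8 genes kept a change at 24h was read against ctrl, with the sets taken by library name. It is again a description, since the ctrl libraries are those of the contrast above. None of the 8 was called in either genotype, beside 0.0152% of 13176 genes in WT (2 genes) and 0% of 12452 in Cacnb3-KO. Over all genes, 1106 in WT and 1343 in Cacnb3-KO had an unadjusted edgeR p below 0.05, and DESeq2 called 30 and 48. Sik1 came out below its ctrl level in 5 of 5 cultures of each genotype, at 15.7 ± 1.89 against 23.04 ± 5.30 CPM in WT (log2 change -0.55, SE 0.17) and 14.3 ± 3.21 against 19.3 ± 3.76 CPM in Cacnb3-KO (-0.44, SE 0.19). With the culture as a block, the calls over all WT genes numbered 122 (2 without it), none of them among the 8. In that fit the edgeR adjusted p of Sik1 was 0.0317 in WT (log2 change -0.52) and 0.0701 in Cacnb3-KO (-0.44), under 2-fold in both. Per1 was lower than in ctrl in 5 of 5 Cacnb3-KO cultures, by a log2 change of -0.69 (SE 0.18), and its 24h values in culture order were 25.5, 29.2, 23.9, 29.1 and 37.2 CPM. In WT the Per1 change was -0.31. Rgs1 went the other way and was above ctrl in 5 of 5 cultures of each genotype, with log2 changes of 0.29 in WT and 0.45 in Cacnb3-KO. With the block, the edgeR adjusted p in Cacnb3-KO was 0.0211 for Per1 (-0.66) and 0.0302 for Rgs1 (0.53), both under 2-fold. There, not every same-numbered pair of libraries deviated together. In WT it was 0.136 for Per1 and 0.138 for Rgs1. The remaining genes changed by -0.32 (Crem), -0.28 (Coq10b), -0.24 (Rgs2), -0.095 (Pde4b) and -0.061 (Pde4d) in WT and by 0.050, 0.34, -0.13, 0.073 and -0.19 in Cacnb3-KO.

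The genotypes were compared next, a measure that did not choose the genes. The ctrl to 0p5h changes of the 8 genes differed between genotypes by -0.13 to 0.13 on the log2 scale, with none called by the edgeR interaction test (0% of 13465 genes called, adjusted p = 0.999956 for all 8, 30 genes at an unadjusted p below 0.05, and 0 called by DESeq2). That fit leaves out the pairing by culture, and 30 genes are far below a share of 0.05 of those tested, so its p-values ran high. With the culture as a block, the edgeR adjusted p was 0.999895 for all 8. The 95% interval of the difference was -0.44 to 0.63 for Sik1, -0.73 to 0.47 for Rgs2 and -0.41 to 0.66 for Coq10b, and with the culture as a block -0.33 to 0.50, -0.43 to 0.17 and -0.23 to 0.52. Each interval holds for 1 gene, is not adjusted for the number of genes tested and is not a limit of detection. True differences of any size inside it remain possible. The ctrl to 24h changes differed most for Coq10b, by 0.62 (95% interval -0.038 to 1.28, adjusted p = 0.753): it went slightly down in WT and slightly up in Cacnb3-KO. None of the 8 was called there either (0% of 13536 genes called, 658 at an unadjusted p below 0.05, and 0 called by DESeq2).

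In the ctrl set, the log2 difference of Cacnb3-KO over WT ran from -0.42 for Per1 (adjusted p = 0.316) to 0.50 for Rgs2 (SE 0.19, adjusted p = 0.262). In the 0p5h set it ran from -0.32 for Per1 and Pde4d (adjusted p = 0.373 and 0.299) to 0.38 for Rgs2 and Crem (adjusted p = 0.352 and 0.255). None of the 8 was called, beside 0% of 13022 and 0% of 12806 genes, with 2161 and 2103 genes at an unadjusted p below 0.05 and 146 and 84 called by DESeq2. Without WT culture s864, 249 genes were called in ctrl, none of the 8 among them, and the adjusted p of Rgs2 was 0.0387 (log2 difference 0.70). Rgs2, Crem and Rgs1 thus stood higher, and Per1, Pde4b, Pde4d, Sik1 and Coq10b lower, in the Cacnb3-KO means of both sets, without a call.

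**Figure D3:**
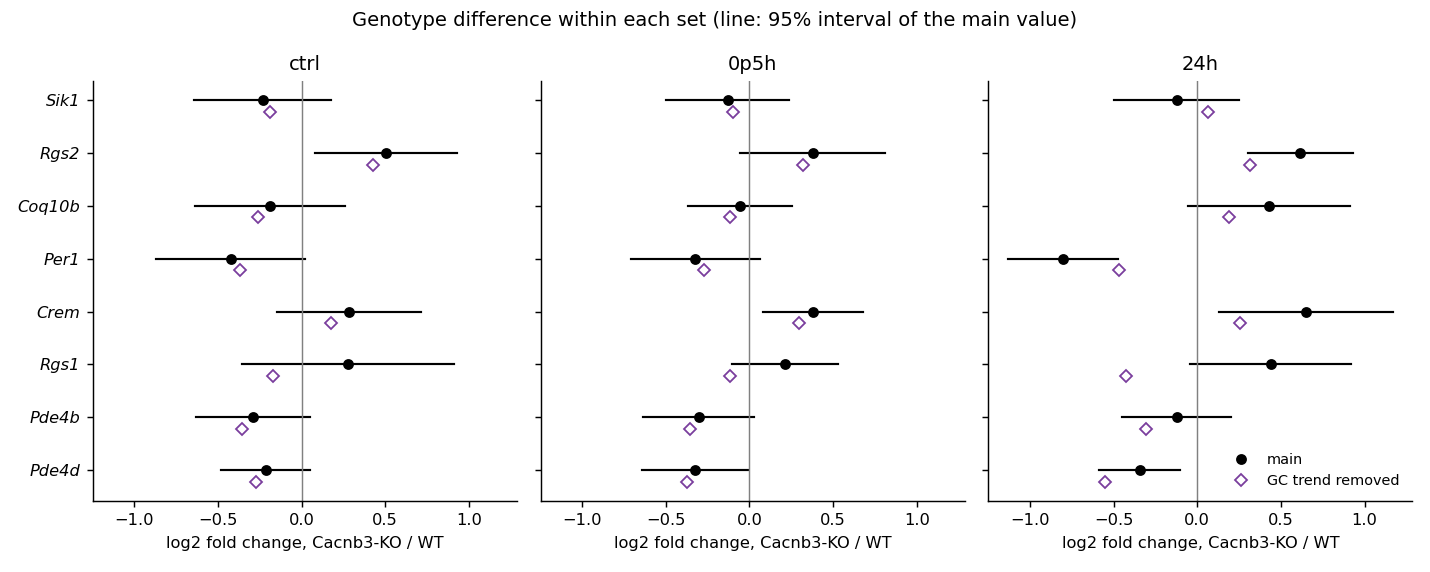
Log2 difference of Cacnb3-KO over WT for the 8 genes in the ctrl, 0p5h and 24h sets, with bars for the 95% interval of the edgeR fit and diamonds for the value after a trend with GC content was removed. In 24h the intervals of Per1 (-1.13 to -0.47), Pde4d, Rgs2 and Crem do not include 0, and the diamonds of Per1, Rgs2 and Crem lie nearer to 0 than the fitted values.

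Per1, Rgs2, Crem and Pde4d differed most between genotypes in the 24h set. Per1 was at 60.0, 41.5, 58.6, 48.9 and 46.3 CPM in WT and at 25.5, 29.2, 23.9, 29.1 and 37.2 CPM in Cacnb3-KO, without overlap, a log2 difference of -0.80 (SE 0.15, 95% interval -1.13 to -0.47, adjusted p = 0.0515). Rgs2 did not overlap in the other direction, at 63.1 to 88.6 CPM in WT against 99.7 to 147 CPM in Cacnb3-KO, with a log2 difference of 0.62 (SE 0.15, 95% interval 0.30 to 0.93, adjusted p = 0.0515). Both missed the threshold of 0.05 narrowly. Pde4d was at 32.98, 30.5, 35.7, 35.1 and 31.4 CPM in WT and at 22.2, 27.3, 27.99, 24.4 and 27.3 CPM in Cacnb3-KO, also without overlap (log2 difference -0.35, SE 0.11, adjusted p = 0.0574). Crem was at 121, 111, 101, 80.1 and 75.1 CPM in WT and at 167, 117, 203, 191 and 82.2 CPM in Cacnb3-KO, and its groups overlapped (0.65, SE 0.24, adjusted p = 0.0751). Cacnb3-KO cultures s851 and s865 were the ones with Crem inside the WT range. The adjusted p was higher for Rgs1 (0.44, adjusted p = 0.160), Coq10b (0.43, adjusted p = 0.173), Sik1 (-0.12, adjusted p = 0.615) and Pde4b (-0.12, adjusted p = 0.559). The log2 differences of Rgs1 and Coq10b were larger in size than that of Pde4d.

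The count of 3 genes of 8 without overlap stands beside 6.51% of 12706 genes, and the count of 4 of 8 at an unadjusted p below 0.05 beside 38.4%. None of the 8 was called, as for 0% of all genes, but that share rests on the fit and on single libraries: 606 genes were called by DESeq2, 615 in 1 edgeR fit of all 30 libraries, 376 without the filter on low counts, 733 without WT culture s864 and 1129 without Cacnb3-KO culture s865, none of the 8 among them. For 4 of the genes the test and the libraries decide on which side of 0.05 the adjusted p falls, and all 4 stay under 2-fold. For Per1, Rgs2, Pde4d and Crem, in that order, it was 0.00132, 0.00575, 0.0200 and 0.0486 with DESeq2 and 0.00571, 0.0190, 0.0312 and 0.0233 in 1 edgeR fit of all 30 libraries. With the sequencing lane as a covariate it was 0.0891, 0.0892, 0.112 and 0.354. Leaving out Cacnb3-KO culture s865 gave 0.00799, 0.0118, 0.0376 and 0.0111, and leaving out WT culture s864 gave 0.0377 for Per1 and Rgs2. Lane also cut the Crem difference from 0.65 to 0.34. Other properties of the libraries moved with genotype in 24h. Mitochondrial genes took 3.21 to 16.5% of reads in Cacnb3-KO and 0.706 to 5.61% in WT, and 8 markers of mature migratory dendritic cells (Ccr7, Fscn1 and Ccl22 among them) summed to 10624 to 18752 CPM against 20714 to 29362.5 CPM. In ctrl the median mitochondrial share was 5.23% in Cacnb3-KO and 1.53% in WT. With a trend on GC content removed from the log2 CPM of each library, the difference was -0.47 for Per1 (adjusted p = 0.126), 0.31 for Rgs2 (0.185), 0.25 for Crem (0.434) and -0.55 for Pde4d (0.126), and that of Rgs1 turned from 0.44 to -0.42. The GC content of the longest annotated transcript was 56.1% for Per1, 43.6% for Rgs2, 42.5% for Crem and 35.9% for Rgs1, beside a median of 49.4% over tested genes. The part of lane, mitochondrial share and marker level in these differences was not tested beyond the values given.

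Levels were then compared between the genes as CPM per kilobase of exon, the scale used in this paragraph alone. In WT ctrl the mean levels ran from Rgs1 (47.1) over Pde4b (32.3), Rgs2 (24.7), Crem (20.8), Per1 (11.3), Coq10b (6.40) and Sik1 (5.11) to Pde4d (2.90). Neighbours in this order overlapped over the 5 libraries, except Crem and Per1. In WT 0p5h, Rgs2 headed the order at 88.8 and overlapped with Rgs1 at 77.6, and Sik1, at 17.9, stood beside Per1 at 17.2. In Cacnb3-KO 0p5h, Rgs2 was at 114 and Rgs1 at 88.8. By 24h Rgs1 was again the highest, at 57.3 in WT and 76.9 in Cacnb3-KO, and Pde4d the lowest, at 2.76 and 2.15.

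Other parts of the pathway were read from lists of textbook genes, with the 8 genes left out. These lists were also chosen with earlier results known, so adjusted p-values between sets only state which genes passed the rule. Upstream, 12 of 13 Gs-coupled receptor genes were tested in WT and 11 in Cacnb3-KO. None was called at 0p5h against ctrl. Between 0p5h and 24h, Adora2b, a low-affinity adenosine receptor, fell in WT (log2 change -1.57, edgeR adjusted p = 0.00356). With the culture as a block, Ptger2, a prostaglandin E2 receptor, was the only receptor called at 0p5h, lower in Cacnb3-KO (-1.26, adjusted p = 0.00029), and it was called higher there at 24h against 0p5h (1.16, adjusted p = 0.000781).

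The genes that carry the signal inside the cell were not called at 0p5h in any list. Of 14 genes of adenylyl cyclases and G proteins, 9 were tested in WT and 8 in Cacnb3-KO, with Gnai2, an inhibitory G protein, at log2 changes of 0.048 and 0.10 and Adcy6, a cyclase, at 0.10 and 0.082. Of 11 genes of PKA and the Epac exchange factors 8 were tested, with the PKA inhibitor gene Pkib at 0.21 and 0.24 and the regulatory subunit gene Prkar1a at 0.15 in both. All 9 genes of CREB factors and coactivators were tested, with a median of -0.055 in WT and -0.077 in Cacnb3-KO, including Sik3 (0.019 and 0.0076) and Crtc2 (-0.038 and 0.013). The relatives of the 8 genes gave no calls either. Pde3b and Pde7a, the most abundant of the other phosphodiesterases, were at 0.074 and -0.014 in WT, and Rgs10 and Rgs12, of the other RGS genes, at 0.16 and 0.0042. None of 11 other clock genes was called, nor was Per1 (Tef at -0.021 and Nr1d2 at 0.032 in WT), and none of 12 other coenzyme Q genes (Coq9 at 0.0033 and Coq8b at -0.012 in WT). None of these lists gave a call between 0p5h and 24h. In the blocked fit, Gnas, the gene of the stimulatory G protein subunit, was called lower (-1.05, adjusted p = 0.00453) and Rgs18 higher (1.28, adjusted p = 0.00238) in Cacnb3-KO 24h.

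The list of other textbook CREB targets, also put together with earlier results known, held larger changes than any of the 8 genes beside genes that hardly changed, from -0.030 (Per2) to 5.73 in WT. Of 15 tested genes of 18 listed, 5 were called higher in WT at 0p5h and 9 in Cacnb3-KO, and none was called lower. Over all genes tested, 0.176% and 0.282% were called higher. Since the list was chosen with earlier results known, nothing is read from that contrast, and adjusted p-values between sets only state which genes passed. The medians of the 15 genes were 1.37 and 1.79 on the log2 scale. With the culture as a block the counts called higher were 11 and 12. Several of these genes also respond to other pathways, such as serum response factor and AP-1 signalling. Fosb, a subunit of the AP-1 factor, rose most in WT, by a log2 change of 5.73, and by 5.18 in Cacnb3-KO. Nr4a1, a nuclear receptor gene, rose by 4.31 and 4.57. Fos rose by 3.24 and 2.86, Btg2, an antiproliferative gene, by 1.68 and 1.79, and Junb by 1.37 and 1.57. Ptgs2 (the inducible cyclooxygenase), Areg (the growth factor amphiregulin) and Dusp1 (a MAP kinase phosphatase) were called higher in Cacnb3-KO, by 4.24, 3.52 and 1.98. Their WT values of 3.32, 2.66 and 1.83 missed the threshold (adjusted p = 0.176, 0.178 and 0.0945) and passed it with the culture as a block, and their interaction tests were not called (adjusted p = 0.999956 each), so no difference between genotypes was shown. From 0p5h to 24h, 10 of these targets were called lower in WT and 8 in Cacnb3-KO, beside 0.592% and 0.495% of all genes tested. None was called at 24h against ctrl or between genotypes. Il10, an anti-inflammatory cytokine gene, was not called at 24h against ctrl in WT (adjusted p = 0.597) or in Cacnb3-KO (2.30, adjusted p = 0.444), and the WT value was called once the culture was a block (1.48, adjusted p = 0.0121).

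**Figure D4:**
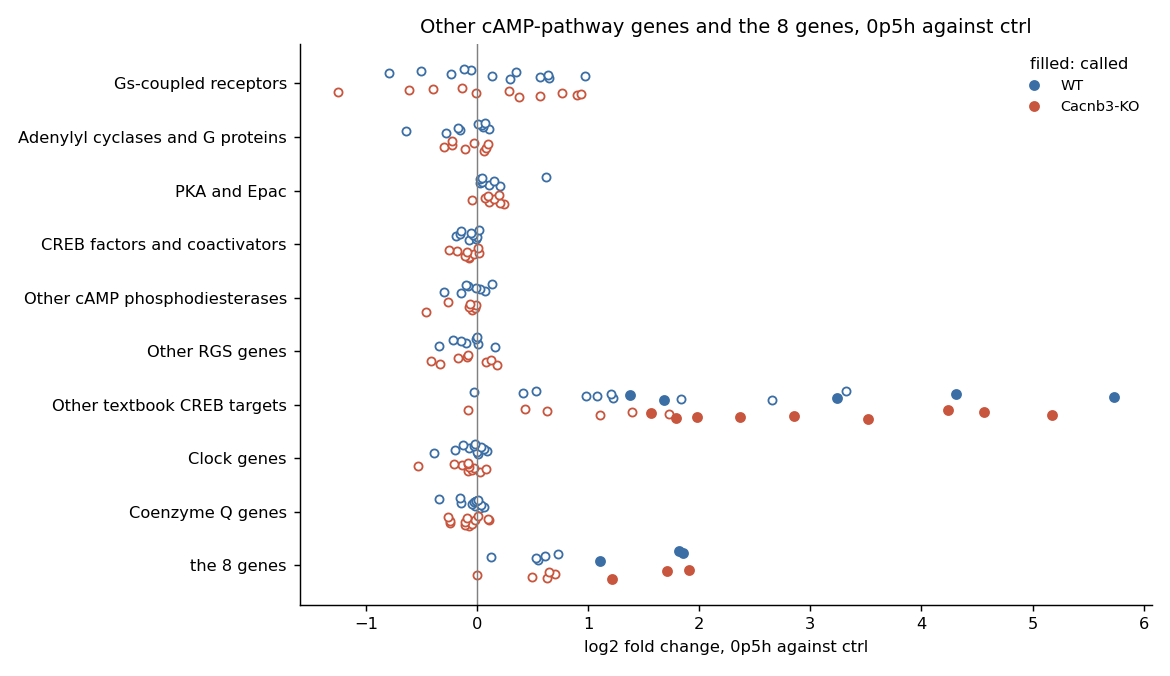
Log2 change from ctrl to 0p5h of the genes in 9 pathway lists and of the 8 genes, in WT and Cacnb3-KO, with filled points for genes called at an adjusted p below 0.05 and at least 2-fold. Filled points occur for Sik1, Rgs2 and Coq10b and among the other CREB targets, the receptor genes spread more widely around 0 without a filled point, and the other lists lie nearer to 0.

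Over the 30 libraries the 8 genes did not share 1 pattern. The values below are Pearson correlations of log2 CPM, a description over libraries that share cultures, sets and depth. Sik1 was close to Rgs2 (0.867), Per1 (0.820) and Coq10b (0.784), and Rgs2 to Coq10b (0.803). Per1 and Rgs1 showed almost no correlation over the pooled libraries (0.0072), nor did Crem and Pde4d (-0.071), while Pde4b and Pde4d stood at 0.722. Per1 and Rgs1 were nonetheless both higher in 0p5h than in ctrl in every culture. Among all other genes, the 3 most alike to Sik1 were Pim3 (0.966), Zfp703 (0.940) and Ets2 (0.939), and those most alike to Rgs2 were Fos (0.953), Fosb (0.930) and Irf2bp2 (0.918). For Coq10b they were Spty2d1, Gm6377 and Osgin2 (0.906 to 0.879), for Per1 Hps6, Zc3h12a and Ndel1 (0.925 to 0.911), and for Crem Trim36, Ifrd1 and Chd7 (0.895 to 0.885). For Pde4b they were Il12b, Nr4a3 and Nfil3 (0.894 to 0.850), for Pde4d Dcp1a, Etv6 and Rel (0.920 to 0.888), and for Rgs1 Flrt3, Arf4 and Zbtb10 (0.863 to 0.861).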

How the data were processed

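BMDCs from WT and Cacnb3-/- mice were sequenced as poly-A RNA (30 libraries; 8237393 to 32164225 counted reads). Per the labels and file headers, the authors aligned reads with STAR 2.4 and deposited raw counts per Ensembl gene from featureCounts 1.5.1; strand settings are not given in the sources used here. Ensembl IDs were paired with symbols for 89.4% of 43629 genes. Genes passing edgeR's filterByExpr were TMM-normalised and tested with edgeR 4.0.16 (quasi-likelihood, Benjamini-Hochberg over all genes) in R 4.3.3. A call needed an adjusted p below 0.05 and a change of at least 2-fold. CPM values use TMM library sizes, and correlations log2 CPM with a prior count of 2. The scripts were tested on simulated data.

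Groups follow library names. The result of 1 listed gene is not reported here. Members and lists were chosen with earlier results of these data known. The genes named are the 8 members, the 3 genes most correlated with each, list genes called between sets (up to 8 a list) or else the 2 most abundant, and Cacnb3. Same-numbered libraries deviated together: 29 of 30 pairs had a correlation over 0.1 (median 0.609, lowest 0.0746, other numbers -0.219, over 13755 genes), so the culture was used as a block in alternative fits. Both genotypes never shared a number. The pairing comes from the culture numbers in the library names. Alternatives were DESeq2 1.42.0, its size factors in edgeR, no filter, no fold minimum, 1 fit of all libraries, the block, removal of a GC trend (with the block within a genotype), lane, and leaving out each culture.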

Additional observations from a re-analysis of the deposited data

Results flagged for a closer look

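Of 48 groups of 5 libraries (8 genes in 6 groups), 3 had 1 library far from the others by Dixon's test, and chance alone gives about 1 in 20 groups. Sik1 in WT ctrl had its lowest value, 14.04 CPM, in culture s850, and the next was 23.4 CPM, a gap of 0.748 of the group's range. Coq10b in WT ctrl had its highest value, 41.9 CPM, in culture s855, above the next at 29.6 CPM (0.751 of the range). Rgs1 in WT 24h had its lowest value, 264 CPM, in culture s856, below the next at 420.2 CPM (0.876 of the range).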

How the results depend on the processing

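Of 1296 recomputed values, 31 of tested comparisons changed sign and 26 passed a threshold missed in the reported fit. Changes of the 8 genes between sets with 0p5h were compared only by size, and 2 moved by more than the spread. With 1 culture left out, adjusted p for 0p5h against ctrl stayed below 0.05 in 1 of 5 cases for Coq10b in each genotype and in 2 of 5 for Rgs2 in WT, and for Per1 in Cacnb3-KO 24h against 0p5h in 3 of 5. These counts only show how the calls depend on single cultures, since these libraries are those of the contrast that chose the genes. Pde4d in Cacnb3-KO 0p5h against ctrl, 0.0019, was -0.010 with the block, -0.011 with lane and -0.073 to 0.15 with 1 culture left out. The number of the 8 genes called at 0p5h against ctrl in WT was 1 to 3 when 1 culture was left out (1 without s846, s850 or s856). It was 2 to 3 in Cacnb3-KO, and for 24h against 0p5h 2 to 4 in WT and 2 to 3 in Cacnb3-KO. Without a fold minimum, 6 were called for WT 24h against 0p5h. In Cacnb3-KO 24h against 0p5h, removing the GC trend with the block moved Per1 to -1.11 and Rgs1 to -0.68.

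With the replicate block (the culture number as a block), members called stayed at 3 in each of the 4 comparisons with 0p5h. The numbers did not meet the pairing rule in Cacnb3-KO 24h against ctrl, where the block gave 138 genes called in all (0 without it), Il10 among them (2.22, adjusted p = 0.0137), and in the ctrl to 24h interaction, where it gave 16 genes called in all and 0.65 for Coq10b (adjusted p = 0.233). Genotype comparisons could not be blocked. DESeq2 with a replicate block was chosen after seeing the data.

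All 31 were in values short of the threshold. In Cacnb3-KO 24h against ctrl, Crem was -0.20 with the GC trend removed and the block, -0.11 with lane and -0.022 to 0.10 with 1 culture left out, and Pde4b was -0.027 with the GC trend removed and the block. Between genotypes, removing the GC trend gave Rgs1 -0.17 in ctrl, -0.12 in 0p5h and -0.42 in 24h, and Sik1 0.065 in 24h. With 1 culture left out, Rgs1 in ctrl ran from -0.0087 to 0.45 and Coq10b in 0p5h from -0.14 to 0.022, and Coq10b in 0p5h was 0.0033 with lane. For the genotype difference in the ctrl to 0p5h change, Rgs1 was 0.030 with the block, 0.077 with the GC trend removed and the block, and 0.033 with DESeq2 and the block, and Pde4b was 0.015 with lane. With 1 culture left out it ran from -0.021 to 0.25 for Sik1, -0.022 to 0.22 for Crem, -0.051 to 0.27 for Per1, -0.13 to 0.085 for Pde4b, -0.20 to 0.031 for Pde4d, -0.19 to 0.076 for Rgs1 and -0.027 to 0.24 for Coq10b. For the ctrl to 24h change, removing the GC trend with the block gave -0.26 for Rgs1 and -0.15 for Rgs2, and leaving out 1 culture gave -0.062 to 0.21 for Rgs2. Beyond the construction of each fit, the cause was not tested.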
